A study of Mus musculus with 8 samples.

Results

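The regions described here are the genomic islands of ASXL1 binding that carried the activating mark H3K4me3 and not the repressive mark H3K27me3 in wild-type cells. An island was taken from the wild-type ASXL1 list when it lay on an autosome, was narrower than 20000 bp, overlapped a wild-type H3K4me3 island by at least 1 bp and overlapped no wild-type H3K27me3 island. The islands were thus chosen by measured values, the wild-type H3K4me3 and H3K27me3 calls. This rule selected 10498 of all 17419 ASXL1 islands, or 60.3%, and 61.5% of the 17065 autosomal ones. They are called H3K4me3-marked ASXL1 islands below. Presence of H3K4me3 and absence of H3K27me3 in wild type are therefore not results.

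Chromatin immunoprecipitation followed by sequencing was made in mesenchymal stem/progenitor cells (MSPCs), adherent stromal cells grown out of mouse bone marrow in MesenCult medium, of C57BL/6 background and at passages 5 to 10. Wild-type cells gave libraries for ASXL1, H3K4me2, H3K4me3 and H3K27me3, and Asxl1-/- cells gave libraries for the 3 histone marks but none for ASXL1. The labels do not say which part of Asxl1 was deleted, in which cells, or how many animals or cultures stand behind a library. With a single library for each target and genotype, no comparison of genotypes has a replicate check, and an input library was not analysed here.

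ASXL1 is a partner of the deubiquitinase BAP1, with which it removes ubiquitin from histone H2A. H3K4me3 is placed by COMPASS-type methyltransferases at active promoters, H3K4me2 spreads further over promoters and enhancers, and H3K27me3 is the product of Polycomb repressive complex 2. MSPCs form bone, fat and cartilage and support blood stem cells, and truncating mutations of ASXL1 are common in myeloid malignancies.

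The labelled cell type was checked against marker genes. Of 14 mesenchymal marker genes, 13 had an H3K4me3 island within 1000 bp of an end in wild type, the exception being Lepr, against 1 of 7 leukocyte markers (Spi1), 1 of 5 endothelial markers (Kdr), 3 of 5 epithelial markers and 3 of 4 neuronal markers. H3K4me3-marked ASXL1 islands lay at 9 of the mesenchymal markers and at 0 of the other 21. These counts are no check of the cell type, because the rule bars wild-type H3K27me3. That mark lay at 2 of the 14 mesenchymal markers, 4 of 7 leukocyte, 3 of 5 endothelial, 5 of 5 epithelial and 4 of 4 neuronal markers. The Asxl1 gene itself had such an island of 9 kb at chr2:153342201-153351200. Its H3K4me3 island measured 7.2 kb in wild-type and 6.2 kb in mutant cells, which leaves the deleted part of the gene unknown. Between the genotypes the lists differed in length: 17395 autosomal H3K4me3 islands became 14792, with a median width of 3400 bp against 4200 bp. Islands of at most 2000 bp numbered 4712 in wild type and 2390 in Asxl1-/-. The length covered by each mark also shifted chromosome by chromosome, from 0.222 to 2.09 times wild type for H3K27me3, and these shifts are given beside the results they move with.

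The DNA under the islands was first read at promoters, because most of these islands lay at genes. RefSeq promoter sequences of GRCm38.p6, which shares its coordinates with mm10, run from 250 bases before to 50 bases after a listed start. Of 20085 autosomal promoters of protein-coding genes, 8286 (of 6906 genes) lay wholly inside H3K4me3-marked ASXL1 islands. Shown here are the 250 bases before the start of 6 genes at which different things happened to the marks in Asxl1-/-. At Klf6, a zinc-finger transcription factor, the ASXL1 island was among the widest. At Anp32b, a histone chaperone, H3K4me3 narrowed, and at Nol12, a nucleolar RNA-binding protein, it widened. At Ackr3, a scavenging receptor for CXCL12, H3K27me3 appeared. At Cd34, a sialomucin of progenitor cells, H3K4me3 was lost, and at Ankrd1, a target gene of YAP, both H3K4me3 and H3K4me2 were lost. Capitals mark exact matches, on either strand, to any of 8 short strings, none of which contains another: the GC box GGGCGG, the ETS string CCGGAAG, the CCAAT box, the TATA box TATAAA, the YY1 string AAGATGGC, the cAMP response element TGACGTCA, the AP-1 string TGAGTCA and the E-box CACGTG.
Klf6, chr13:5861239-5861488, plus strand: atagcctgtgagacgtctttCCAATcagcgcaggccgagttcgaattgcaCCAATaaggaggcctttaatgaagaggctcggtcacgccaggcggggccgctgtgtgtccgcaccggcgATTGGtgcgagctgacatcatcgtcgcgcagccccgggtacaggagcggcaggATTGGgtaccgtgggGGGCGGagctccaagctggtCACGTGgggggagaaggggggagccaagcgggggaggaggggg
Anp32b, chr4:46450676-46450925, plus strand: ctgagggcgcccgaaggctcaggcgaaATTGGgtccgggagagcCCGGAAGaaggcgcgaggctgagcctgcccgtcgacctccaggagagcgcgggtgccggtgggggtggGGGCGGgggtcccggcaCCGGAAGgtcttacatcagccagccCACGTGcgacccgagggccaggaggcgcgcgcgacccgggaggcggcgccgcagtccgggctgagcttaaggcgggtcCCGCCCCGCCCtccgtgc
Nol12, chr15:78934683-78934932, plus strand: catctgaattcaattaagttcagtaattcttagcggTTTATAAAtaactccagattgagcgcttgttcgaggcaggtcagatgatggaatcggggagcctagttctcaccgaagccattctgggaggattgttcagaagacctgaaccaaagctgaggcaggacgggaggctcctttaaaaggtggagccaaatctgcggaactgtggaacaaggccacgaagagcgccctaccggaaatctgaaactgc
Ackr3, chr1:90203730-90203979, plus strand: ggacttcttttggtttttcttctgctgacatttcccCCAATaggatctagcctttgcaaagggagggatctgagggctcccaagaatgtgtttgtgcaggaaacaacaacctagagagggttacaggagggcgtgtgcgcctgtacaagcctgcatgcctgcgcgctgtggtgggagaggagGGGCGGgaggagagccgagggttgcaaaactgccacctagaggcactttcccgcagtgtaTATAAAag
Cd34, chr1:194938571-194938820, plus strand: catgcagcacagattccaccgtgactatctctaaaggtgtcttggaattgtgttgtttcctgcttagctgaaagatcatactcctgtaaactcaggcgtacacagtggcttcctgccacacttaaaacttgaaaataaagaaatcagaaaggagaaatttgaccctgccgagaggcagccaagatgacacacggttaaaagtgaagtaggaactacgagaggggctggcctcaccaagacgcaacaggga
Ankrd1, chr19:36119845-36120094, minus strand: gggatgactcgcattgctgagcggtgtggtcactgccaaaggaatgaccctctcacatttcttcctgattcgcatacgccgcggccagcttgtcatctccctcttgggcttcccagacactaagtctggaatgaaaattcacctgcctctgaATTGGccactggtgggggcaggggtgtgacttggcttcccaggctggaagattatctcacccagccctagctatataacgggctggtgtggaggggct
These stretches differed in base content. Anp32b was 75.2% G or C with 31 CpG sites and 3 GC boxes, and Klf6 was 64.8% G or C with 21 CpG sites and 4 CCAAT boxes. The Cd34 stretch was 46.4% G or C with 6 CpG sites and held none of the 8 strings, and that of Ankrd1 held 7 CpG sites and a single CCAAT box. Nol12, with 10 CpG sites and 48.8% G or C, shows that a CpG-poor stretch also occurred where H3K4me3 widened. A match is a description of the letters and not evidence that a factor binds, and the strings, a selection from a longer set that was looked at, were chosen after earlier results of these data were known.

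Promoters inside H3K4me3-marked ASXL1 islands were rich in CpG. Their median G+C content was 62.0% and their median ratio of observed to expected CpG was 0.811, against 57% and 0.586 over all autosomal promoters. A GC box occurred in 68.4% of them (95% exact interval 67.4 to 69.4) against 47.0% of all, an ETS string in 21.7% against 11.9%, a YY1 string in 5.25% against 3.06%, a cAMP response element in 3.68% against 2.30% and an E-box in 10.8% against 7.89%. TATAAA was rarer, at 5.80% against 12.7%, AP-1 strings stood at 3.42% against 4.70%, and CCAAT was as frequent inside as over all promoters, at 38.4% and 38.1%. The 631 promoters in wild-type H3K4me3 islands with neither ASXL1 nor H3K27me3 had a CpG ratio of 0.602 and a GC box in 58.2% (54.2 to 62.0). Promoters with neither H3K4me3 nor ASXL1 had a CpG ratio of 0.208.

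The ASXL1 islands themselves were broad. They covered 60.6 Mb in all, with a median width of 4800 bp, an interquartile range of 3200 to 7400 bp and extremes of 200 and 19800 bp. A gene end was counted when an island reached within 1000 bp of either end of a gene, and 7361 of the 10498 (70.1%) reached the end of a protein-coding gene, where 53.1% of all autosomal ASXL1 islands did. A further 775 lay at the end of another kind of gene, 1582 lay inside protein-coding genes away from their ends and 780 lay between genes. No start was listed for chromosome 18, and off it 6326 of 10188 islands lay within 1000 bp of a start of a protein-coding gene and 148 reached only a far end, so that most gene ends here are promoters. At 819 islands, starts were found on both strands.

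H3K4me3-marked ASXL1 islands lay at 8860 of 20665 autosomal protein-coding genes, or 42.9%. They were found at most genes of housekeeping machinery: 27 of 30 ribosomal protein genes, 24 of 25 proteasome subunits, 18 of 20 splicing factors, 24 of 27 oxidative phosphorylation genes, 20 of 22 DNA repair genes, 25 of 29 replication and cell cycle genes, 13 of 16 translation factors and all 21 listed autosomal genes of RNA polymerase II and Mediator. Among chromatin genes they lay at 11 of 14 COMPASS methyltransferase genes, all 4 H3K4 demethylases, 7 of 9 genes of the ASXL family and the BAP1 complex and 15 of 23 Polycomb genes. Signalling genes were also above the share of all genes, with 20 of 25 for TGF-beta and BMP, 18 of 25 for Wnt and 15 of 18 for YAP and TEAD. Genes of the lineages that MSPCs can form were near it or below, with 8 of 19 osteoblast, 9 of 21 adipocyte and 5 of 15 chondrocyte genes. Stromal markers had 10 of 21 and secreted or surface factors of the blood stem cell niche 13 of 20. Of the leukocyte and endothelial list, 1 of 19 had such an island, Cd68, and of the epithelial and neuronal lists 0 of 12 and 0 of 11. The island at Cd68 is the same one that was counted for the translation factor gene Eif4a1. The plot of gene lists gives each share with its interval. The intervals of 12 lists lay above the share of all genes, and those of the 3 lists of other cell types lay below it. The other 9 included it: the H3K4 demethylases, the ASXL family and BAP1 complex, Polycomb, osteoblast, adipocyte, chondrocyte, stromal, niche and cell cycle inhibitor lists. These shares are not independent of the rule, which asks for wild-type H3K4me3 and bars wild-type H3K27me3. No share was computed among genes with H3K4me3 and no H3K27me3, so the part of ASXL1 in these differences was not tested.

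**Figure D1:**
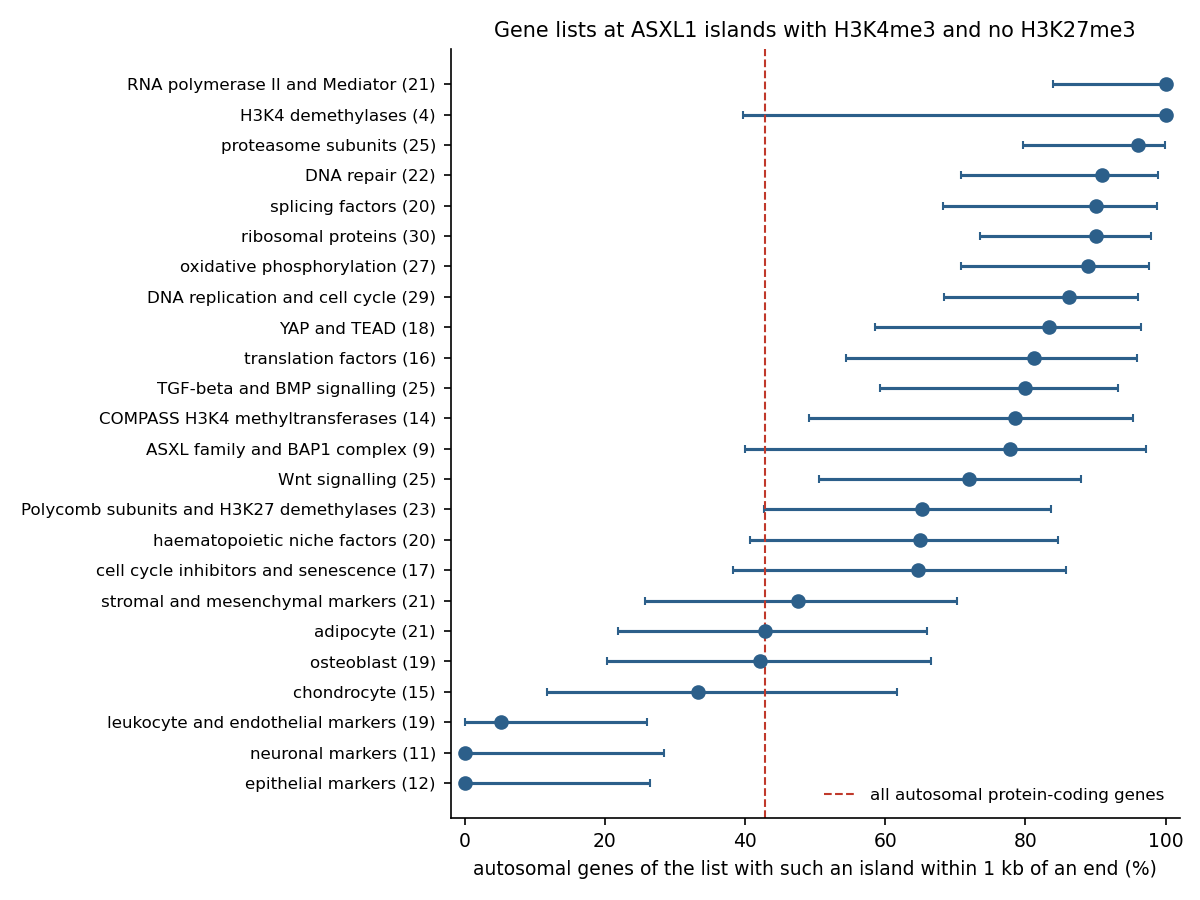
Share of each gene list's autosomal genes (number in brackets) with an H3K4me3-marked ASXL1 island within 1 kb of an end; bars are 95% exact binomial intervals, and the dashed line is the 42.9% of all autosomal protein-coding genes. RNA polymerase II and proteasome genes sit near 100%, lineage lists near the line, and markers of other cell types near 0.

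The 8 widest of these islands that reach a named gene stood at Klf6, Zfhx4, Zc3h12a, Hnrnpl and Ppp4c, each 19.8 kb, and at Sbno2, Dusp1 and Skiv2l, each 19.6 kb. Zfhx4 is a homeobox and zinc-finger factor, Zc3h12a encodes the RNase Regnase-1, Hnrnpl is a splicing regulator, Dusp1 a phosphatase of MAP kinases and Ppp4c the catalytic subunit of a protein phosphatase. All 8 kept H3K4me3 and H3K4me2 in Asxl1-/- and none had H3K27me3. At Klf6 (chr13:5859201-5879000) the ASXL1 island was covered over 11.8 kb by wild-type H3K4me3 and over 8 kb in Asxl1-/-, and by H3K4me2 over 13 and 11.4 kb. At Sbno2 H3K4me3 covered 11.4 kb and then 19 kb. Klf6 is also where the width limit falls: 8 islands were 19.8 kb wide and 13 were 20 kb, the first width left out, of 351 wider islands in all. An island of 19.8 kb just inside the limit, at chr1:163134401-163154200, had H3K4me3 over 1.4 kb, and over 2.4 kb in the mutant. One of 20 kb just outside, at chr12:80220201-80240200, had it over 5 and 13.2 kb.

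H3K4me2 accompanied H3K4me3 almost everywhere. It was present in wild type at 10491 of the 10498 islands (99.9%) and in Asxl1-/- at 10165 (96.8%). Of the 10491, 329 lost it, or 3.14% (2.81 to 3.49), where 27.4% of all autosomal H3K4me2 islands had no counterpart in Asxl1-/-. H3K4me3 was lost from 1517 islands, 14.5% (13.8 to 15.1), where 20.5% of all autosomal wild-type H3K4me3 islands had none. H3K27me3 appeared at 287 islands, 2.73% (2.43 to 3.06), where 3.33% of all autosomal H3K4me3 islands free of it in wild type gained it. Lost means here that no island of the Asxl1-/- list overlaps the ASXL1 island, and gained that one does. The shares set beside these count islands of the histone mark instead. Wild-type H3K4me2 islands had a median width of 3000 bp over the autosomes. The widest at each of these ASXL1 islands had a median of 5400 bp, so the H3K4me2 shares are not like for like. The intervals cover counting error only, islands are not replicates of a genotype, and a mark missing from some cells cannot be told apart from a weaker mark in all of them.

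Because the rule required H3K4me3 in wild type, these islands could lose the mark but not gain it. The opposite change was counted at ASXL1 islands outside the rule: of 4590 autosomal islands under the width limit with neither H3K4me3 nor H3K27me3 in wild type, 173 (3.77%) had H3K4me3 in Asxl1-/-. Choosing instead the ASXL1 islands with H3K4me3 and no H3K27me3 in Asxl1-/- gave 9474, of which 179 (1.89%) lacked H3K4me3 in wild type and 559 (5.90%) had H3K27me3 there.

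Most islands that lost H3K4me3 kept H3K4me2, but absence of H3K4me2 was far more frequent there than where H3K4me3 was kept. H3K4me2 remained at 1189 of the 1517 (78.4%, 76.2 to 80.4) and was absent from the other 328 (21.6%, 19.6 to 23.8). Over the length of the 1517, H3K4me2 covered 68.8% in wild type and 41.9% in Asxl1-/-. Among the 8981 islands that kept H3K4me3, 5 (0.0557%) had no H3K4me2 in Asxl1-/-. H3K27me3 appeared at 48 of the 1517 (3.16%, 2.34 to 4.17) and at 239 of the 8981 (2.66%, 2.34 to 3.02), and these intervals overlap.

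Position separated the islands that lost H3K4me3 from those that kept it. At ends of protein-coding genes 152 of 7361 lost it, or 2.06% (1.75 to 2.42). Away from them 1365 of 3137 did, or 43.5% (41.8 to 45.3), and these made up 90.0% of all losses. The share was 30.3% (27.1 to 33.7) at ends of other genes, 42.3% (39.8 to 44.8) inside protein-coding genes and 59.1% (55.6 to 62.6) between genes. With growing distance from the nearest protein-coding gene end it went from 1.88% for islands holding the end, through 6.60% within 1 kb, 26.0% beyond that to 5 kb, 39.5% to 20 kb and 47.6% to 50 kb, to 56.2% farther away. Loss of H3K4me2 followed the same order, with 0.598% (0.435 to 0.802) at protein-coding gene ends and 9.10% (8.11 to 10.2) elsewhere. Gain of H3K27me3 did not, with 2.66% (2.31 to 3.06) and 2.90% (2.34 to 3.55).

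Islands at promoters of protein-coding genes seldom lost H3K4me3. Of the 6326 at a listed start of such a gene 89 lost it (1.41%, 1.13 to 1.73), and of the 819 with such starts on both strands 3 did (0.366%, 0.0756 to 1.07). With the listed starts of all genes it was 189 of 6779 (2.79%, 2.41 to 3.21). At the 148 islands reaching only the far end of a gene 55 lost it (37.2%, 29.4 to 45.5), near the 42.3% inside genes. Away from protein-coding gene ends 840 islands had a listed start within 1000 bp, and 15.2% of these lost H3K4me3 against 54.5% of the 2178 without one.

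**Figure D2:**
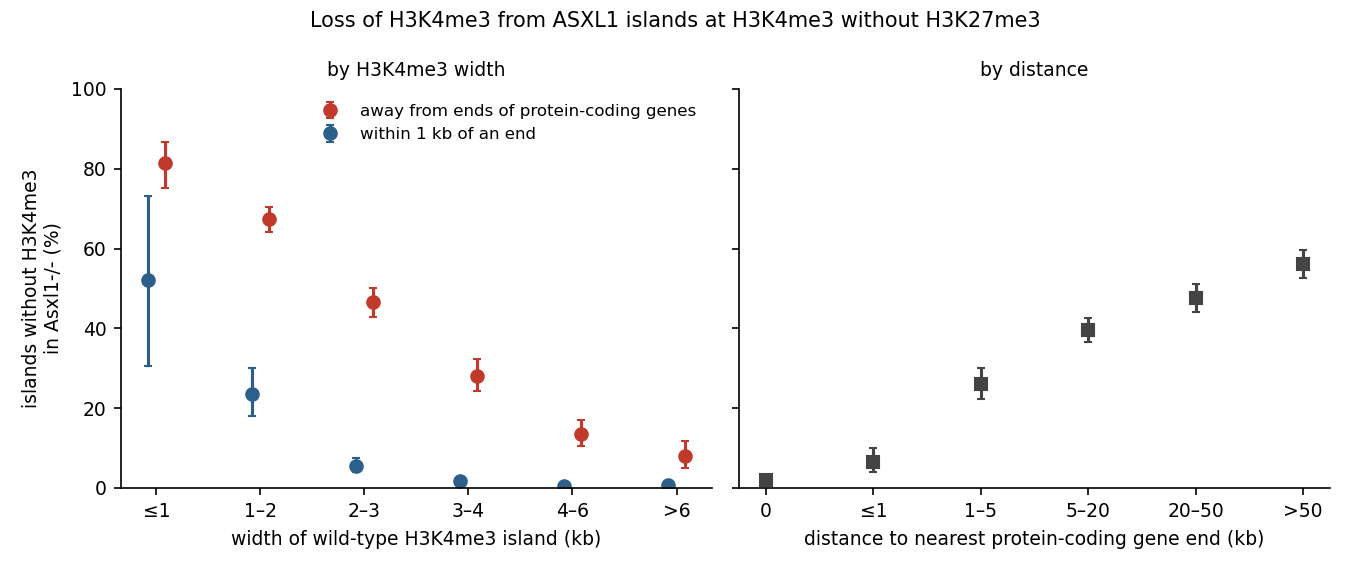
Share of H3K4me3-marked ASXL1 islands that lost H3K4me3 in Asxl1-/-, by the width of their wild-type H3K4me3 island and by distance from the nearest end of a protein-coding gene; points are shares of islands and bars 95% exact binomial intervals. At every width the share was lower within 1 kb of an end (blue) than elsewhere (red), and it went from 1.88% for islands holding an end (distance 0) to 56.2% beyond 50 kb.

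The width of the wild-type H3K4me3 island moved with both position and loss. Islands at gene ends had a median H3K4me3 width of 4800 bp and those elsewhere 2600 bp, while the ASXL1 islands were alike in width, with medians of 4600 and 5000 bp. The H3K4me3 islands behind the 1517 losses had a median of 2000 bp, and the ASXL1 islands there were 5400 bp wide. Within each class of H3K4me3 width the difference between positions remained. For islands over 1 to 2 kb the loss was 23.6% (17.9 to 30.1) at ends and 67.3% (64.2 to 70.3) elsewhere, for 2 to 3 kb 5.54% and 46.5%, for 3 to 4 kb 1.74% and 28.1%, for 4 to 6 kb 0.348% and 13.5%, and above 6 kb 0.638% (0.330 to 1.11) and 7.87% (4.93 to 11.8). At 1 kb or less it was 52.2% (30.6 to 73.2) of 23 islands at ends and 81.5% (75.2 to 86.7) of 189 elsewhere. The Asxl1-/- H3K4me3 list held fewer narrow islands over the whole genome, as given above, and its part in these losses was not tested.

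Losses at H3K4me3 islands without ASXL1 were compared at the same width and position, both kinds being free of H3K27me3 in wild type. The 2201 islands without ASXL1 were narrower and lay less often at gene ends (33.7%), and 42.8% of them were lost. Away from gene ends, islands over 1 to 2 kb that met ASXL1 were lost more often, 66.3% (63.6 to 69.0) against 54.6% (50.7 to 58.4). The intervals of the neighbouring classes there overlapped, with 77.2% and 71.2% at 1 kb or less, 47.4% (44.3 to 50.5) and 38.1% (32.1 to 44.4) at 2 to 3 kb and 30.3% and 28.9% at 3 to 4 kb. At gene ends the order was the other way from 1 to 4 kb, but not at 1 kb or less, where 38.2% (22.2 to 56.4) with ASXL1 and 32.1% (22.2 to 43.4) without were lost. It was 19.3% (14.3 to 25.1) with ASXL1 against 27.1% (21.6 to 33.2) without at 1 to 2 kb, where the intervals overlap, 4.74% (3.38 to 6.45) against 13.5% (9.22 to 18.8) at 2 to 3 kb and 1.51% (0.978 to 2.22) against 6.82% (3.16 to 12.5) at 3 to 4 kb. Over all widths and positions together, and so not matched, H3K27me3 was gained by 2.29% (2.03 to 2.58) of the 11782 with ASXL1 and by 8.86% (7.71 to 10.1) of the 2201 without. ASXL1 islands that carried H3K4me3 together with H3K27me3 in wild type, of which there were 1343, lost H3K4me3 from 3.43% (2.42 to 4.69) at gene ends and 28.1% (22.8 to 34.0) elsewhere.

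Coverage showed where within the islands the marks changed. Of the length of all H3K4me3-marked ASXL1 islands, H3K4me3 covered 67.2% in wild type and 63.3% in Asxl1-/-, and H3K4me2 84.1% and 76.0%. At gene ends H3K4me3 went from 76.2% to 77.5% and H3K4me2 from 87.5% to 82.2%. Elsewhere both were lower in Asxl1-/-, H3K4me3 at 32.5% from 47.4% and H3K4me2 at 62.4% from 76.8%. At the centre of the islands elsewhere, H3K4me3 covered 73.0% in wild type and 47.2% in Asxl1-/-, and H3K4me2 92.4% and 77.5%.

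Around single gene starts the marks had different shapes. At 4623 islands with 1 listed start, the ASXL1 island reached a median of 1452 bp upstream and 2555 bp downstream, and H3K4me3 in wild type 1431 and 2994 bp. H3K4me2 reached 1674.5 and 3662 bp, so that it extended furthest into the gene. In Asxl1-/- H3K4me3 reached 1759 and 3153 bp, a median paired difference of 200 bp upstream and 0 downstream. H3K4me2 reached 1566 and 3287 bp, a median paired difference of 0 upstream and -200 bp downstream. At 2 kb upstream of the start H3K4me3 covered 26.4% of positions in wild type and 40.2% in Asxl1-/-, while at 4 kb downstream H3K4me2 covered 46.3% and 37.7%. H3K27me3 covered 1.36% of these starts in Asxl1-/-.

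**Figure D3:**
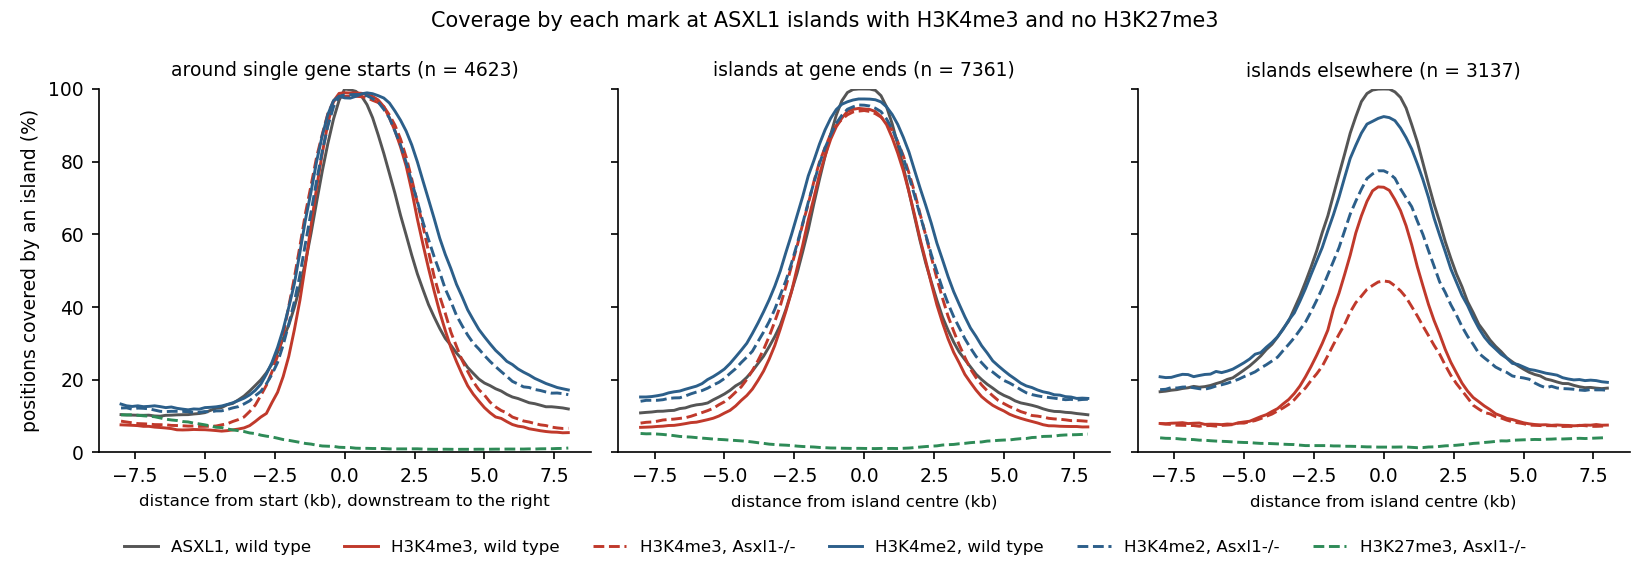
Percentage of positions covered by an island of each library, by distance from a gene start (islands with 1 listed start) or from the centre of the ASXL1 island; solid lines are wild type, dashed lines Asxl1-/-, and ASXL1 reaches 100% at 0 because it defines the islands. The H3K4me3 lines nearly coincide at the centre of islands at gene ends, 94.5% and 94.1%, and part at the centre of islands elsewhere, 73.0% against 47.2%.

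Where 1 wild-type island of a mark met exactly 1 Asxl1-/- island, their widths were compared. For H3K4me3 at these ASXL1 islands 8516 pairs had medians of 4400 and 4800 bp, a median ratio of 1.08, and 58.2% were wider in Asxl1-/-, where 59.7% of all autosomal pairs were. H3K4me3 pairs without ASXL1 and H3K27me3 had a ratio of 1.22, but their median wild-type width was only 2000 bp. For H3K4me2 8739 pairs had medians of 5200 and 4600 bp, a ratio of 0.917, and 30.7% (29.7 to 31.7) were wider, where 40.4% of all pairs were. H3K4me2 pairs without ASXL1 and H3K27me3 had a ratio of 1.00, and 46.7% (45.5 to 48.0) of them were wider. Their median wild-type width was 2200 bp. Neither comparison was matched for width, so the differences cannot be called particular to islands of ASXL1. The narrower H3K4me2 was seen at gene ends, with a ratio of 0.923, and elsewhere, with 0.895.

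H3K4me3 widths also varied among the gene lists, in these single libraries. Taking the widest ASXL1 island of each gene, H3K4me3 was wider in Asxl1-/- at 5312 of the 8860 genes and narrower at 3010. It was wider at 18 of 21 genes of RNA polymerase II and Mediator, 18 of 24 oxidative phosphorylation genes, 9 of 11 COMPASS genes, 12 of 15 YAP and TEAD genes and 13 of 18 Wnt genes. It was narrower at 15 of 27 ribosomal protein genes, 10 of 18 splicing factor genes 13 of 25 replication and cell cycle genes, 5 of 7 genes of the ASXL family and BAP1 complex and 3 of 5 chondrocyte genes. At Rpl4 the width of H3K4me3 went from 10.6 to 7.2 kb, and at Rps18 from 15.2 to 12.2 kb. Both were picked from the narrowed ribosomal protein genes, while 10 of the 27 were wider. H3K4me2 was narrower at 20 of 25 replication and cell cycle genes, where it was narrower at 60.7% of all 8860.

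Loss of a whole H3K4me3 island at a gene end was rare, and 1.41% of the 8860 genes lost H3K4me3 from every such ASXL1 island at their ends (125 genes). Among the losses at gene ends with the widest wild-type H3K4me3 island, those at Bri3, Calm2 and Pdap1 were partial. There the ASXL1 island overlapped part of an H3K4me3 island that an Asxl1-/- island still met outside it, over 0.6 kb at Bri3 and at Calm2 and over 4 kb at Pdap1. Such partial overlaps made up 27 of the 1517 losses. Whole islands were lost at Col11a1, Cd34, Ankrd1 and Prss22, and the next in width, named after their values had been seen, were at Mab21l1, Traf1, Rin2 and Aldh3a1.

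At Cd34 (ASXL1 island chr1:194937601-194946600) a wild-type H3K4me3 island of 8.4 kb had no counterpart, and H3K4me2 went from 9.8 kb to 1.6 kb. Its promoter, printed above, is CpG-poor. At Ankrd1 (chr19:36107401-36124200) H3K4me3 of 8.2 kb and H3K4me2 of 7.6 kb were both without a counterpart over an ASXL1 island of 16.8 kb. Other YAP and TEAD genes on the list kept H3K4me3, among them Ccn2, a matrix protein induced by YAP, at 4.6 and 6.2 kb. At Col11a1, a collagen chain of cartilage, 1 H3K4me3 island of 8.6 kb under 2 ASXL1 islands was lost. H3K4me2 there went from 8.4 kb to 2.6 kb at the gene end and to 0 over the inner ASXL1 island. Col11a1 and Mab21l1 lie on chromosome 3, where H3K4me3 covered 0.700 times its wild-type length. At Traf1, an adaptor of TNF receptors, H3K4me3 of 6.6 kb was lost and H3K4me2 went from 12.4 to 4.4 kb. At Rin2 it was 6.4 kb of H3K4me3, with H3K4me2 at 17 and 9.6 kb. At Prss22, a serine protease, 8 kb was lost and H3K4me2 was 10.2 and 6.2 kb wide.

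Away from gene ends, the widest H3K4me3 island lost as a whole lay inside Il1rl1, the receptor for IL-33, 13.2 kb from its nearer end (ASXL1 island chr1:40433001-40452200). It was 12.2 kb wide, and H3K4me2 over the ASXL1 island went from 16.4 to 9.8 kb. The next, also named after their values had been seen, lay inside Bckdhb, a subunit of branched-chain keto acid dehydrogenase (9.6 kb), inside Col11a1 as above, and inside Pxn, the focal adhesion protein paxillin (7.4 kb). H3K4me2 covered 17.8 and 16.4 kb of the ASXL1 island in Pxn. At an island between genes 62.3 kb from Zfp36l2 (chr17:84107401-84121600), 6 kb of H3K4me3 was lost while H3K4me2 was 12 and 12.2 kb wide, an example of H3K4me2 without H3K4me3.

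H3K4me2 was lost at every such island of 34 genes, 0.384% of the 8860. The widest wild-type H3K4me2 islands among these losses were at Calm2 (12.6 kb, a partial overlap as above), Foxa3 (10.6 kb), Ankrd1 (7.6 kb), Cavin4 (7.4 kb), Vxn (6.6 kb), Dhrs9 (5.8 kb), Sh2d5 (5.2 kb) and Podn (5 kb). All 8 had also lost H3K4me3. At Foxa3, a forkhead factor of liver and gut, 2.8 kb of H3K4me3 was lost (chr7:19009401-19012800), and at Podn, a matrix proteoglycan, 1.6 kb.

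H3K27me3 was gained at 244 of the 8860 genes, or 2.75%. Of the 287 islands with a gain 239 kept H3K4me3 (83.3%, 78.4 to 87.4), as did 85.5% of all H3K4me3-marked ASXL1 islands, and 268 had H3K4me2 (93.4%), against 96.8% of all. The gain was 8.93% (7.18 to 10.9) at the 941 islands with wild-type H3K27me3 within 5000 bp, as at Ackr3, Mbp, Fndc4 and Aqp2 below, and 2.12% (1.84 to 2.43) at the other 9557. In these 287 islands H3K27me3 covered 41.2% of the length in Asxl1-/-, H3K4me3 54.5% and H3K4me2 67.8%. At Ackr3 (chr1:90200401-90209600) an H3K27me3 island of 112.4 kb covered the whole ASXL1 island of 9.2 kb, while H3K4me3 over it went from 6 to 4.2 kb. At Maf (chr8:115696601-115710800), a basic leucine zipper factor, H3K27me3 covered 8.8 kb (0 with the wider 50% of each list) and H3K4me3 went from 12 to 4.4 kb. At Atp1b1, a subunit of the sodium pump, H3K27me3 covered 10 of 11.2 kb (3.4 kb with the wider 50% of each list), and at Pdlim4, an actin-associated LIM protein, 9 of 15 kb. Prr5, a subunit of the mTORC2 kinase, had 8.2 kb covered, with H3K4me3 at 5.6 and 4.2 kb wide. Mbp (10.2 kb covered), Fcgr4 and Fndc4 (8.2 kb each) complete the 8 with the longest overlap, and all 8 kept H3K4me3 and H3K4me2.

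Among the 48 islands that gained H3K27me3 and lost H3K4me3, named after their values had been seen, were those at Meox1, a homeobox factor of the somites, Aldh3a1, an aldehyde dehydrogenase, and Aqp2, a water channel. At Meox1 (chr11:101876601-101883000) H3K27me3 was 109 kb wide over an ASXL1 island of 6.4 kb, which had carried 2.6 kb of H3K4me3, and H3K4me2 went from 6.8 to 10.2 kb. At Aldh3a1 H3K4me3 of 5.8 kb was lost and H3K27me3 was 12.6 kb wide, with H3K4me2 at 8.2 and 5 kb. At Aqp2 3 kb of H3K4me3 was lost under 56.4 kb of H3K27me3. Each of these 3 kept H3K4me2, but 19 of the 48 had none in Asxl1-/-. One of those was at Lrrc17, a leucine-rich repeat protein, where H3K4me2 of 4.2 kb was lost with 4 kb of H3K4me3.

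The lists held 314 genes with such an island, each counted once. Of these 4 lost H3K4me3 (1.27%, near the 1.41% of all 8860) and 8 gained H3K27me3 (2.55%, near 2.75%). Of 11 COMPASS genes 1 lost H3K4me3, Setd1b, from an island at the end with the higher coordinate (chr5:123168401-123172200), where H3K4me3 was 3.4 kb wide and H3K4me2 went from 4.4 to 2.8 kb. Of 10 stromal markers 1 lost H3K4me3 and H3K4me2, Eng, the co-receptor endoglin, with 3.6 kb of each in wild type and 0 in Asxl1-/- (chr2:32641801-32649600). Of 5 chondrocyte genes Col11a1 lost H3K4me3, and of 15 YAP and TEAD genes Ankrd1 did. H3K27me3 was gained at 3 of 20 TGF-beta and BMP genes, over 1 kb at Bmp1, 2 kb at Id2 and 1.8 kb at Id3, at which H3K4me3 was 9.4 kb or wider in both genotypes except for 7.8 kb at Bmp1 in wild type. It was also gained at Thy1, a surface marker of stromal cells (3.2 kb), Chst11, a chondroitin sulfotransferase (1.4 kb), Cbx2, a Polycomb subunit (2.4 kb), Btrc, a ubiquitin ligase subunit of Wnt signalling (1.8 kb), and Psmd1 (1.4 kb). No gene of the ribosomal, translation, splicing, oxidative phosphorylation, replication, repair, RNA polymerase, osteoblast, adipocyte, niche or cell cycle inhibitor lists lost H3K4me3 or gained H3K27me3. In the osteoblast list, however, H3K4me3 was narrower at Omd, a bone matrix proteoglycan, going from 7 to 1.8 kb, and wider at Sparc, the matrix protein osteonectin, going from 8.4 to 17.4 kb. Omd lies on chromosome 13, where H3K4me3 covered 0.793 times its wild-type length, and Sparc on chromosome 11, where it covered 1.28 times.

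The H3K4me3 islands that widened most were at Dot1l, a histone methyltransferase, from 8.8 to 23.8 kb, at Nol12 from 4.4 to 19 kb, at H6pd, a dehydrogenase of the endoplasmic reticulum, from 2.6 to 17 kb, at Plekhj1 from 9 to 22.8 kb and at Loxl1, an enzyme that cross-links elastin, from 2.8 to 16 kb. Rps15 (6.2 to 17.8 kb), Lrrc32 (5.6 to 16.6 kb) and Izumo4 (9 to 19.6 kb) followed. At Nol12 4.4 kb was the widest of several wild-type H3K4me3 islands in its ASXL1 island. H3K4me3 covered 10.2 kb of that ASXL1 island in wild type and 16.8 kb in Asxl1-/-. Rps15, a ribosomal protein gene that is not on the list above, also gained an H3K27me3 island of 7 kb, over 2.6 kb of its ASXL1 island. Dot1l, Plekhj1, Rps15 and Izumo4 lie close together on chromosome 10, between the islands starting at 80291801 and 80790401, and over that chromosome H3K4me3 covered 1.45 times its wild-type length. The islands that narrowed most were at Maf, from 12 to 4.4 kb, Anp32b, from 12.6 to 5.4 kb, and Cxcl5, a chemokine for neutrophils, from 8.8 to 1.6 kb. Adgrl2, Cfap300, Fam3c, Etv1, an ETS-family factor, and Ptgfr, a prostaglandin receptor, narrowed by between 5.6 and 6.6 kb. Adgrl2 and Ptgfr lie on chromosome 3, where H3K4me3 covered 0.700 times its wild-type length.

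Promoters in islands that lost H3K4me3 were poorer in CpG. There were 99 such promoters, of 80 genes, with a median G+C content of 53.0% and a CpG ratio of 0.325, against 62.3% and 0.814 for the 8187 that kept it. A GC box occurred in 28.3% (19.7 to 38.2) against 68.9%, and an ETS string in 8.08% (3.55 to 15.3) against 21.9%. AP-1 strings occurred in 15.2% (8.74 to 23.8) against 3.27% (2.90 to 3.68), and TATAAA in 13.1% (7.18 to 21.4) against 5.72%. A YY1 string was in 0 of 99 (0 to 3.66%) against 5.31%. The 201 promoters in islands that gained H3K27me3 had a CpG ratio of 0.744 and a GC box in 64.2% (57.1 to 70.8), nearer to those of all these islands. The wild-type H3K4me3 island had a median width of 2000 bp over all islands that lost the mark and 4600 bp over those that kept it. The promoters were not matched for this width, and promoters of the same gene were counted apart in the intervals. The sequence of the islands away from listed starts was not read.

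Across the 19 autosomes the share that lost H3K4me3 was higher away from protein-coding gene ends than at them in 19 of 19. It ranged from 19.8% on chromosome 9 to 67.1% on chromosome 3 away from ends, and from 0.451% on chromosome 9 to 5.54% on chromosome 3 at ends. Chromosome 3 lost H3K4me3 from 29.6% of its islands, chromosome 13 from 23.5% and chromosome 9 from 4.88%. On chromosome 3 the whole length covered in Asxl1-/- was 0.700 times wild type for H3K4me3, 0.532 for H3K4me2 and 0.222 for H3K27me3, and on chromosome 13 it was 0.793, 0.616 and 0.491. On chromosome 9 it was 1.26, 1.17 and 1.53. Gain of H3K27me3 was 0 on chromosomes 3 and 13 and 1.39% on chromosome 9. It reached 6.16% on chromosome 19, where H3K27me3 covered 1.05 times its wild-type length. All 3 marks thus moved together by chromosome, and the part of these shifts in the losses and gains was not tested beyond the split by position, which held on each autosome.

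**Figure D4:**
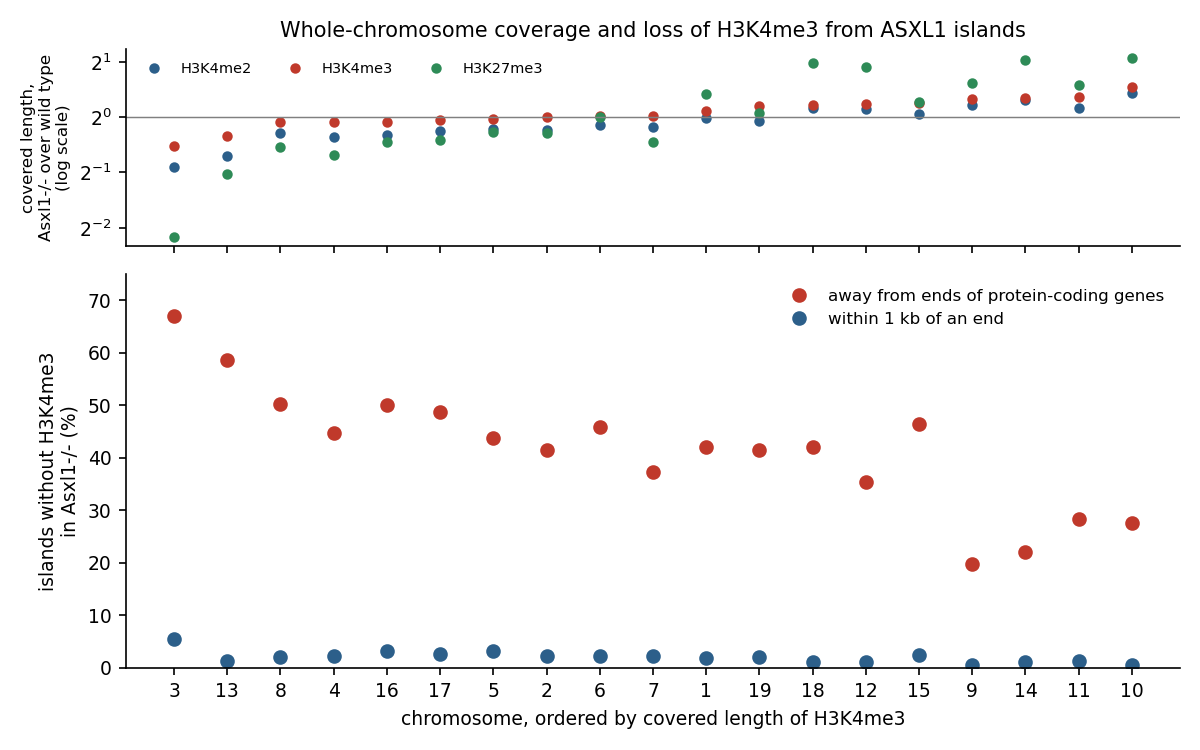
Upper panel, length covered by each mark on each autosome in Asxl1-/- relative to wild type (log scale); lower panel, share of H3K4me3-marked ASXL1 islands that lost H3K4me3 at protein-coding gene ends (blue) and elsewhere (red), with chromosomes ordered by the H3K4me3 ratio. Loss elsewhere is highest on chromosomes 3 and 13, which have the lowest ratios, and exceeds loss at ends on all 19 autosomes.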

How the data were processed

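Chromatin immunoprecipitation sequencing of MSPCs gave 8 samples, of which 7 have a deposited island list and 1 list stands for each target and genotype. Per the submitters' processing notes reads were aligned with BWA and islands called with SICER 1.1 on mm10. The sources used here do not give the BWA version, the calling parameters, the control or the false discovery threshold. Each deposited list gives only the start and end of each island, on a grid of 200 bp, with no count, score or p-value, so depth is unknown and an island missing from a list may differ little in signal.

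Islands were compared as intervals with an overlap of 1 bp (Python 3.11.15, numpy 2.4.6, pandas 2.3.3, scipy 1.17.1, figures with matplotlib 3.10.9). bedtools 2.31.1 gave equal counts, 10498 islands and 1517 losses. Tested on simulated lists, all 200 planted losses and all 200 planted gains over the 10498 islands were recovered. Gene positions came from RefSeq GRCm38.p6, whose table has no exon, intron or UTR, and a gene end is either end of a gene within 1000 bp. Listed starts, strands and sequences came from its promoter table. All 470 genes of the 24 lists were matched. Widths named for a mark are those of its widest island over the ASXL1 island. The planned ranking by caller score was replaced by width. Genotypes were not tested against each other, as 1 library in a group gives no spread. Shares carry 95% exact Clopper-Pearson intervals.

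Named islands are the 8 widest, the 8 losses of H3K4me3 or H3K4me2 with the widest wild-type island, the 8 longest gains of H3K27me3, the 8 most widened and the 8 most narrowed at a named protein-coding gene, those beside the width limit, and changed genes of each list. Of the islands this rule takes, 1 is not reported here. Others are said to be chosen after their values were seen. Rpl4, Rps18, Ccn2, Omd and Sparc also fall outside this rule and were picked from their lists as examples. Printed promoters are the first of each class that lies in its island. The islands, gene lists and motifs were chosen with earlier results of these data known. Alternatives varied the overlap, width limit, distance from H3K27me3, list lengths, chromosomes, merging of islands, window and gene set.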

Additional observations from a re-analysis of the deposited data

How the results depend on the processing

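Each alternative changed 1 choice. Of 88 recomputed values 0 reversed, but only the H3K4me3 width ratio and the difference in loss between positions could reverse. The other values could only stay or move. Of 71 shares and differences of shares, 31 stayed within the main interval and 40 moved out of it. For covered length that interval was made as if the share were one of islands. It does not measure the spread of a length. The number of islands and the H3K4me3 width ratio have no interval: of 17 values, 16 were within 1.5 times the main one, with 5445 to 10849 islands and ratios of 1.07 to 1.12, and loss of H3K4me3 stayed more frequent away from gene ends than at them under each alternative run. Of 412 overlap lengths at single islands 7 differed: H3K27me3 was 0 over Maf with the wider 50% of islands and 0 over Lrrc17 with that and with equal list lengths, and 1 other moved by over 1.5 times, Atp1b1, to 3.4 kb with the wider 50%. Such a length could differ only where the histone lists themselves changed: the wider 50%, equal list lengths and joined islands. Under the other alternatives it was fixed in advance.

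Loss of H3K4me3 (14.5% in the main count) was 9.65% when 50% of the island had to be overlapped, 15.3% with no wild-type H3K27me3 within 5000 bp, 11.8% below 5000 bp of width, 23.6% with the wider 50% of each histone list, 11.2% with equal list lengths, 13.2% without chromosomes 3, 4, 10, 13 and 14, and 15.8% with wild-type H3K4me3 islands as the unit. Its excess away from gene ends, in percentage points, was 31.1 with the 50% overlap, 38.2 below 5000 bp, 22.3 with the wider 50%, 35.9 with equal lengths, 39.2 without the 5 chromosomes, and 38.5 and 43.4 with windows of 0 and 5000 bp. Gain of H3K27me3 (2.73%) was 1.22% with the 50% overlap, 2.12% with 5000 bp kept from H3K27me3, 2.15% below 5000 bp, 2.39% with the wider 50% and 3.57% with the X chromosome. Loss of H3K4me2 (3.14%) was 4.27% with the 50% overlap, 5.94% with the wider 50%, 2.13% with equal lengths and 2.46% without the 5 chromosomes. The share at gene ends (70.1%) was 68.8% with 5000 bp kept from H3K27me3, 72.3% below 5000 bp, 71.3% without the 5 chromosomes, 67.4% and 75.2% with windows of 0 and 5000 bp, and 77.5% with all annotated genes.

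Length covered in Asxl1-/- by H3K4me3 (63.3%) and H3K4me2 (76.0%) was 78.8% and 84.6% with the 50% overlap, 59.8% and 74.8% with no width limit, 80.2% and 86.0% below 5000 bp, 64.4% and 78.6% with the wider 50%, and 65.7% and 77.5% with equal lengths. Without the 5 chromosomes H3K4me2 covered 77.5%. The number of islands fell to 5445 below 5000 bp. The causes were not tested. The alternatives for the excess and the change of unit were added after seeing the data.

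No paired analysis was possible because each group is 1 library and no statistical test was made. Without counts or scores, depth, signal strength and the threshold of calling cannot be told apart from the genotype, and a stricter threshold of the caller could not be tried.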

Other observations

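The same kind of island on the X chromosome, which the rule leaves out, changed in another way. There were 313 X-linked ASXL1 islands under the width limit with H3K4me3 and no H3K27me3 in wild type, and 240 of them reached a protein-coding gene end. H3K27me3 appeared at 99 of the 313 in Asxl1-/-, or 31.6% (95% exact interval 26.5 to 37.1), against 2.73% of the autosomal ones. The whole H3K27me3 list also grew off the autosomes. In wild type 17507 of its 17712 islands were autosomal, and in Asxl1-/- 18447 of 20249. The share over all X-linked H3K4me3 islands was not computed, so the gain cannot be called particular to islands of ASXL1. H3K4me3 was lost from 13 (4.15%, 2.23 to 7.00) and H3K4me2 from 6 (1.92%). The labels give no sex of the animals, and the difference was not tested.

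The 351 autosomal islands of 20 kb or wider that met the other conditions had a median width of 25.4 kb. The widest spanned 215.8 kb on chromosome 9 (chr9:7811401-8027200) over Birc2 and Birc3, inhibitors of apoptosis, Cfap300 and Yap1, the transcriptional co-activator YAP. Of the 351, 50 lost H3K4me3 (14.2%, 10.8 to 18.3), 16 gained H3K27me3 (4.56%) and 2 lost H3K4me2. Loss of H3K4me3 was 4.66% (2.35 to 8.19) at gene ends and 33.9% (25.3 to 43.3) elsewhere, in the same order as at the narrower islands.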
